A study of Mus musculus with 16 samples.

Results

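A set of 10 genes of the small intestine, which encode amino acid and peptide transporters, or the heavy chains those transporters need, was followed through the terminal ileum of wild-type and *Tas1r3*-/- mice. The members were taken by name from the transcripts of the deposited table: *Slc15a1*, *Slc6a19*, *Slc6a20a*, *Slc7a9*, *Slc3a1*, *Slc7a7*, *Slc7a8*, *Slc3a2*, *Slc1a1* and *Slc1a5*. All 10 had values (36 transcripts in all) and all 10 were among the 19042 genes tested, of 23299 genes with values.

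*Tas1r3* encodes a subunit shared by the sweet and umami (amino acid) taste receptors, and the study asked how its loss bears on the intestine of mice on a Western diet. C57BL/6 mice, either wild type (WT) or *Tas1r3*-/- (KO), received a normal diet with plain water (ND) or a Western diet (WD), which paired a 60% high-fat chow with a 30% sucrose solution, for 10 weeks. Each of the 4 groups is labelled with 4 samples, 2 males (M1, M2) and 2 females (F1, F2), and RNA of whole ileal tissue was sequenced. The legends of the study give another number of mice a group for the sequencing, and the labels were followed here. The KO line carries the deletion in every tissue, and the 4 groups share the strain, the tissue and the length of feeding.

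Dietary protein reaches the enterocyte, the absorptive cell of the villus, as small peptides and free amino acids. Peptides enter through a proton-coupled carrier, while sodium-coupled carriers and an exchanger of the brush border (the apical membrane) take up neutral, cationic and acidic amino acids. Exchangers of the basolateral membrane then pass amino acids on to the blood, and several of these carriers work only as a light chain joined to a heavy chain.

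Not all 16 labelled columns were separate libraries. The KO-ND female columns equalled weighted means of the KO-ND male columns in all but 17 and 18 of 59258 transcripts (none of the departures in a member) and were left out, and the related KO-WD female columns were averaged into 1 library (KO-WD F), which left 13 libraries, with KO-ND represented by 2 males. *Tas1r3* was at most 0.00452 RPKM in every KO library and at least 1.80 in every WT library. Depth implied by the values was 7002742 to 12383144 reads a library. KO-WD M1 stood apart, with the lowest mean of the enterocyte markers (6.50 on the log2 scale, against 7.16 to 9.85 in the other libraries) and the highest of the smooth muscle markers (9.40 against 7.03 to 9.04), so the medians of the transporters and of the related lists in comparisons that use KO-WD are given with and without it.

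Levels are given as scaled RPKM, the length-corrected reads (RPKM) of all transcripts of a gene added up and divided by a scale factor for each library. The deposited values behave like RPKM, but the library total behind them could be the one used for TPM, which leaves ratios within a library as they are. Since the tissue was sequenced whole, fewer enterocytes in a piece of ileum and less RNA in each enterocyte cannot be told apart in any of the levels that follow.

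In WT-ND ileum, *Slc7a9* had the highest level of the 10 genes and *Slc7a8* the lowest. *Slc7a9*, the light chain of the brush-border exchanger for cystine and cationic amino acids (b0,+AT), averaged 199 ± 33.5 scaled RPKM (SD, n = 4), above 97.7% of all genes tested. Its 4 libraries (170 to 241) did not overlap those of the next gene, *Slc3a1* (117 ± 25.2), which encodes rBAT, the heavy chain of that exchanger. *Slc3a1* was followed by *Slc6a19* (113 ± 24.2), the main brush-border carrier of neutral amino acids (B0AT1), and the ranges of these genes overlapped. Below them came *Slc7a7* (82.1 ± 20.9), the basolateral y+LAT1, and *Slc3a2* (80.2 ± 18.2), its heavy chain 4F2hc. *Slc1a5* (74.5 ± 10.3), the exchanger of glutamine and other neutral amino acids ASCT2, and *Slc1a1* (63.2 ± 14.1), the glutamate and aspartate carrier EAAC1, came next, each overlapping its neighbour. A gap then separated *Slc1a1*, lowest library 47.7, from the peptide transporter PepT1 gene *Slc15a1* (34.2 ± 9.78, highest library 44.2). *Slc15a1* overlapped *Slc6a20a* (32.8 ± 12.8), which encodes the proline carrier SIT1. *Slc7a8*, the basolateral neutral exchanger LAT2, stood below both at 12.8 ± 3.65, with no library in common (8.0 to 16.6 against 19.2 and more).

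This order depends on which transcripts are counted. Of the *Slc7a9* sum in WT-ND, 67.9% came from Slc7a9-205, a retained-intron transcript of 370 bases, and the coding transcripts made up 14.1% to 21.5%. With coding transcripts alone, *Slc7a9* averaged 35.4 ± 8.12 scaled RPKM and took place 6 of 10, and *Slc3a1*, which has 1 transcript, led at 118 ± 25.9. *Slc1a5* was the extreme case, because its coding transcript Slc1a5-201 held at most 0.855% of the sum in any library and 70.8% of the WT-ND sum was assigned to Slc1a5-202, a retained-intron transcript of 2807 bases. With coding transcripts alone, *Slc1a5* was at most 0.458 scaled RPKM in every library and fell under the minimum level for testing. *Slc15a1*, *Slc6a20a*, *Slc7a7* and *Slc7a8* were coding for at least 89.9% of their sum in every library. Whether the reads of *Slc7a9* and *Slc1a5* came from the retained introns or from coding RNA that shares their exons cannot be told from these values, and all sums below carry that limit.

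**Figure D1:**
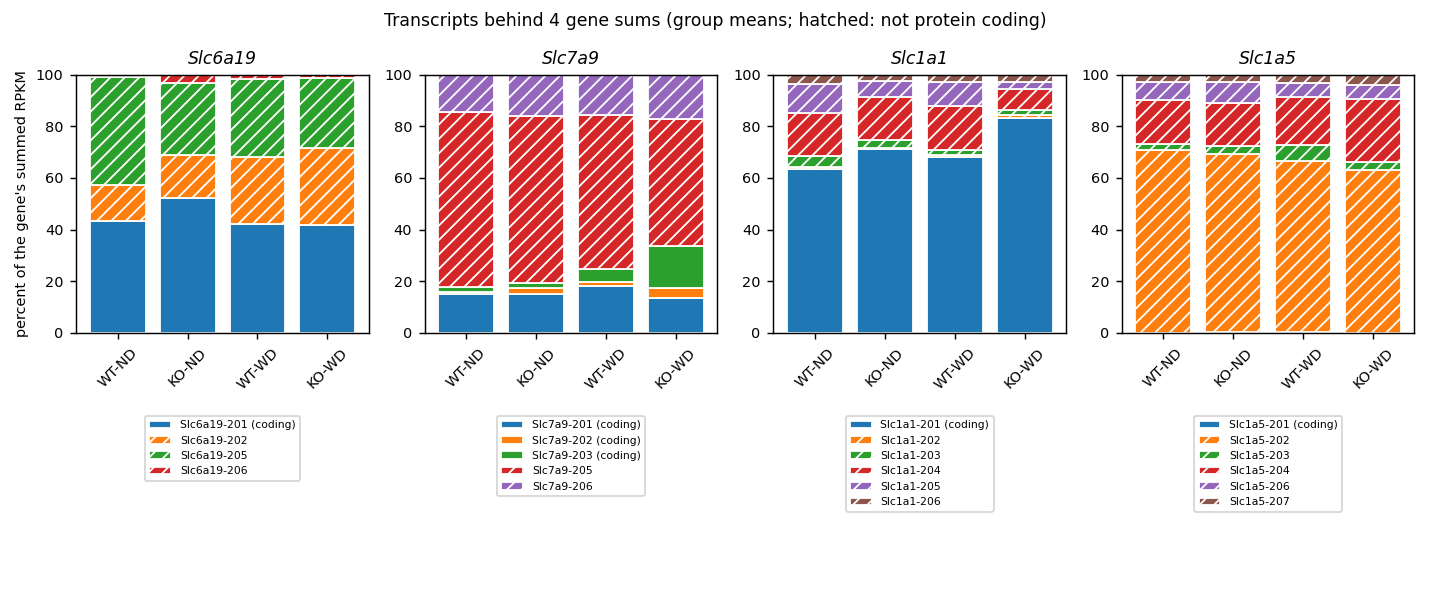
Share of each gene's summed RPKM (vertical axis, percent, mean of the group's libraries) taken by its transcripts in WT-ND, KO-ND, WT-WD and KO-WD for *Slc6a19*, *Slc7a9*, *Slc1a1* and *Slc1a5*. Hatched parts are transcripts not annotated as protein coding: they hold nearly all of *Slc1a5* and, for *Slc7a9*, Slc7a9-205 takes 67.9% in WT-ND and 49.2% in KO-WD.

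The genes lie on 6 chromosomes (GRCm38, GENCODE M21), which sets some limits on their counts. *Slc15a1* (chr14:121459621-121505252, minus strand), *Slc7a7* (chr14:54369442-54417780, minus) and *Slc7a8* (chr14:54722209-54781946, minus) share chromosome 14. *Slc7a9* (chr7:35448796-35466036, plus) and *Slc1a5* (chr7:16781340-16798274, plus) are on chromosome 7, and *Slc3a2* (chr19:8706882-8723369, minus) and *Slc1a1* (chr19:28835049-28913960, plus) on chromosome 19. *Slc6a20a* is at chr9:123634770-123678885 (minus), *Slc6a19* at chr13:73679745-73704865 (minus) and *Slc3a1* at chr17:85028376-85064236 (plus). Genes on the opposite strand overlap *Slc6a19* (*Slc6a19os*), *Slc3a1* (*Prepl*), *Slc7a7* (*Oxa1l*), *Slc1a1* and *Slc6a20a* (*Ccr9* among others). Whether the counting used strand is not given in the sources used here, so reads of such partners may be included. *Gm47171* overlaps *Slc6a20a* on the same strand, so its reads may be included whether or not strand was used.

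Of the 10 transporters, 9 varied together from library to library, and *Slc1a5* did not. Across the 13 libraries, the Pearson correlation of log2 levels had a median of 0.83 over the 36 pairs without *Slc1a5* (0.45 to 0.97) and of -0.03 over the 9 pairs with it (-0.30 to 0.21). These are descriptions: the points share 4 groups and the same libraries, and the genes share whatever differs between pieces of tissue. The ileal identity of the tissue was plain, with 5 of 5 ileal enterocyte markers tested and a sum of 940 to 10389 scaled RPKM, against 13.4 to 47.0 for the 4 of 6 tested markers of the proximal small intestine. The 9 of 10 tested enterocyte markers ranged in sum from 6144 to 10439 in WT-ND, 2614 to 4027 in KO-ND, 5425 to 16608 in WT-WD and 1310 to 12333 in KO-WD, with no marker at 0 in any library. The 8 smooth muscle markers summed to 1364 to 3879, 2352 to 4372, 1253 to 4850 and 1666 to 6395 in the same order, also with none at 0.

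Most of the transporters varied with the enterocyte markers. Pearson's r with the mean of the enterocyte markers over the 13 libraries was 0.92 for *Slc15a1* (Spearman's rho 0.91, and r 0.90 without the 2 libraries farthest from the marker median), 0.91 for *Slc6a19* (rho 0.90, r 0.86), 0.90 for *Slc6a20a* (rho 0.92, r 0.85), 0.90 for *Slc3a1* (rho 0.92, r 0.89) and 0.87 for *Slc7a9* (rho 0.88, r 0.76). It was lower for the basolateral and heavy chain genes *Slc7a7* (0.74), *Slc3a2* (0.68) and *Slc7a8* (0.47) and for *Slc1a1* (0.65). Without the 2 farthest libraries these 4 fell to 0.53, 0.51, 0.26 and 0.39 in the same order. For *Slc1a5* r was -0.39, and it turned to 0.11 without the 2 farthest libraries. With the markers of the ileal enterocyte instead, the order was another: r was 0.93 for *Slc7a9*, 0.91 for *Slc7a7*, 0.89 for *Slc6a19*, 0.88 for *Slc1a1*, 0.87 for *Slc3a1*, 0.85 for *Slc3a2*, 0.83 for *Slc15a1*, 0.75 for *Slc6a20a*, 0.68 for *Slc7a8* and -0.23 for *Slc1a5*. Without the 2 libraries farthest from the median of these markers, r was 0.51 (*Slc6a20a*) to 0.88 (*Slc7a9* and *Slc7a7*) for the genes other than *Slc1a5*. That of *Slc1a5* turned to 0.47 (rho 0.08 over all 13 libraries). Library KO-WD M1 had the lowest level of 8 of the 10 genes, all but *Slc7a8* and *Slc1a5*, and KO-WD F the highest of 5 (*Slc15a1*, *Slc6a19*, *Slc7a9*, *Slc3a1* and *Slc7a7*). The highest library exceeded the lowest 16.8-fold for *Slc6a19*, 13-fold for *Slc7a9* and 12.6-fold for *Slc15a1* and *Slc3a1*, but 2.54-fold for *Slc7a8* and 2.38-fold for *Slc1a5*.

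**Figure D2:**
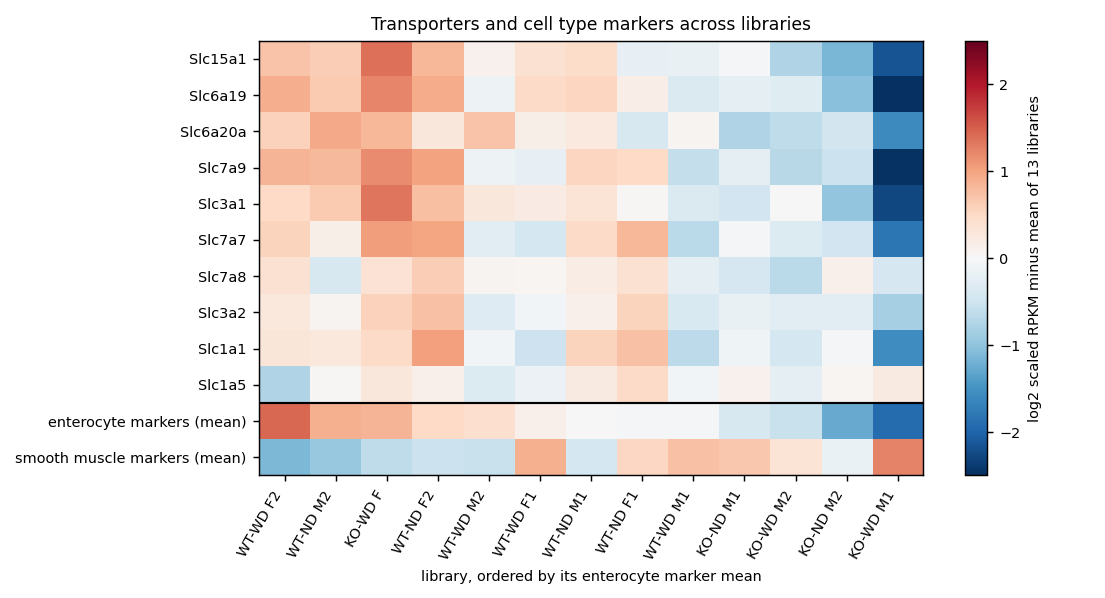
Log2 scaled RPKM of each transporter, and the mean of the enterocyte and smooth muscle markers, minus the mean over the 13 libraries (colour), with libraries along the horizontal axis in the order of their enterocyte marker mean. The order runs from WT-WD F2 (9.85) to KO-WD M1 (6.50), and KO-WD M1 is the lowest library of 8 transporters, while *Slc7a8* and *Slc1a5* follow the order less (r = 0.47 and -0.39).

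The genes most like each transporter were taken from all genes tested, by Pearson's correlation of log2 levels. *Slc15a1* was most like *Eps8l2* (r = 0.974 over 13 libraries) and *Glrx* (0.974), and *Slc6a19* was close to *Cdhr2* (0.975) and *Ces2e* (0.972). *Slc7a9* was most like *Cdhr5* (0.989), a protocadherin that links microvilli, *Cndp2* (0.988), a cytosolic dipeptidase, and *Ezr* (0.986), the ezrin of microvilli. For *Slc3a1* the nearest were *Ces2e* (0.972), *Slc6a19* (0.972) and *Dgka* (0.970), and its light chain *Slc7a9* was not among them. *Slc6a20a* was most like *Galm* (0.965), *Slc35e2* (0.948) and *Cyp4v3* (0.946). *Slc7a7* was nearest to *Fam110c* (0.984), *Myo15b* (0.980) and *Gm20432* (0.975), and its heavy chain *Slc3a2* to *Ell* (0.968), *Slc7a7* (0.961) and *Xdh* (0.961). *Slc1a1* was nearest to *Anxa2* (0.974), *Lpar5* (0.969) and *Pgpep1* (0.968), and *Slc7a8* to *Plcd1* (0.938), *Cpm* (0.910) and *Farp2* (0.909). The nearest genes to *Slc1a5* were *Clec16a* (0.892), *Nudt18* (0.878) and *Map2k5* (0.872), each under 7 scaled RPKM in WT-ND, and the best of the other transporters for it, *Slc3a2*, reached 0.206.

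Because the brush-border genes varied together, the 250 bases before the RefSeq start were read for the members in the RefSeq promoter table. It holds 9 members (GRCm38.p6, without *Slc1a5*). Positions below count from these starts, which can differ from the GENCODE gene ends given above. The windows of *Slc7a9* and that of *Slc6a19* (chr13:73692637-73692886) lie inside their GENCODE genes, and that of *Slc6a20a* overlaps its gene. Short letters typical of factors of intestinal epithelium were searched on both strands, and an N stands for any base. Those of HNF4 (CAAAGNNCA) were found before *Slc7a9*, *Slc3a1*, *Slc7a7* and *Slc7a8* (4 of 9 genes, beside 6.29% of the 27025 genes of the table, and 5 of the members' 14 windows, beside 5.49% of all 32851 windows). Those of CDX2 (TTTATNG) were found before *Slc3a1* alone of the 9 (11.3% of all genes), those of GATA factors (AGATAAG) before *Slc7a9* alone (3.17%) and the core letters of HNF1 (GTTAAT) before *Slc6a20a* and *Slc7a7* (7.49%). A gene counts as matched if any of its windows holds the letters, and *Slc7a7* has 5 windows and *Slc7a9* 2. The 2 windows of *Slc7a9* overlap and share the same HNF4 letters, which the count of windows thus holds 2 times. Neither *Slc15a1* nor *Slc6a19* had a match to any of the 4, which says only that these letters are not in this window. The windows of *Slc3a1* (chr17:85028097-85028346, plus strand), *Slc7a9* (chr7:35448842-35449091, plus) and *Slc6a20a* (chr9:123678833-123679082, minus) are shown 5′ to 3′ as the brush-border members that held a match, with the matched letters in capitals.
Slc3a1: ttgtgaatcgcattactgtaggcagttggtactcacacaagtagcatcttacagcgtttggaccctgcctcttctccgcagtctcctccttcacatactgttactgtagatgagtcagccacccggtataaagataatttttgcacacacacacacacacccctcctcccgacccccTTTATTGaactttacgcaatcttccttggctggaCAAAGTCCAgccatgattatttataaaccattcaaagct
Slc7a9: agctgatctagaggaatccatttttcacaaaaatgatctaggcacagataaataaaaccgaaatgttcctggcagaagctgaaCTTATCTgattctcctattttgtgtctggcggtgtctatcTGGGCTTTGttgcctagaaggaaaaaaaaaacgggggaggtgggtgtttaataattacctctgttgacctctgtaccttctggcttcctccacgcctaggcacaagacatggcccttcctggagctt
Slc6a20a: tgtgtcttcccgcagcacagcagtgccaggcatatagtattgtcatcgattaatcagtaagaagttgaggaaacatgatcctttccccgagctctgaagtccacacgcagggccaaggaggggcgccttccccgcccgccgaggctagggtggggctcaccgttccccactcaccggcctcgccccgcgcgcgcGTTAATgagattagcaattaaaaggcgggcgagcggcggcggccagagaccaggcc
The HNF4 letters of *Slc3a1* lie on the gene's own strand, 39 to 31 bases before the start, with the CDX2 letters 73 to 67 bases before it. In *Slc7a9* both matches are on the opposite strand, the HNF4 letters 127 to 119 and the GATA letters 167 to 161 bases before the start. The *Slc6a20a* window holds 61.2% G and C, against 45.6% for *Slc3a1*, 44.4% for *Slc7a9* and a median of 52.4% over all windows.

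The first comparison asked what the Western diet did to the transporters in wild-type ileum. Levels of 9 of the 10 were lower on average in WT-WD than in WT-ND, with *Slc6a20a* the exception under the scaling used (it too was lower without scaling), but no transporter was called. Calls were made with limma across all genes, at a Benjamini-Hochberg adjusted p under 0.01 with a fold change of at least 2, a rule that 0.00525% of all genes passed, and, with any fold, at a threshold of 0.05 on the adjusted p, which 0.116% passed and again no transporter. The median log2 difference of the 10 was -0.43, beside 0.02 for all genes tested, of which 48.2% were lower. At an unadjusted p under 0.05, 2 transporters passed, *Slc1a5* and *Slc1a1*, against 15.5% of all genes. Scaling of the libraries moved this comparison by 0.46 on the log2 scale, and the differences are relative to that shift.

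*Slc1a5* was the transporter whose groups did not overlap, a pattern that 6.3% of all genes showed in this downward direction. Its WT-ND libraries were at 74.6 and 65.2 (males) and 88.8 and 69.4 (females) scaled RPKM. Its WT-WD libraries were at 60.9 and 50.1 (males) and 57.5 and 37.4 (females), all below the lowest WT-ND library. The fitted log2 difference was -0.54 ± 0.19 (SE, 95% interval -0.96 to -0.13), or 1.46-fold lower, with a limma p of 0.0139 and an adjusted p of 0.209. A two-sided exact permutation test of the 4 against 4 libraries gave p = 0.029, the smallest this design allows. The difference was -0.33 within males and -0.75 within females.

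*Slc1a1*, the EAAC1 gene, showed the lowest mean relative to WT-ND, with a log2 difference of -0.88 ± 0.36 (95% interval -1.66 to -0.09), 1.84-fold lower, a limma p of 0.0316 and an adjusted p of 0.275. It stood at 58.0, 47.7, 65.8 and 81.2 scaled RPKM in WT-ND M1, M2, F1 and F2. In WT-WD the same order gave 24.8, 37.7, 27.5 and 49.1, so that only F2 reached above the lowest WT-ND library. The exact permutation p, two-sided, was 0.057, and the difference was -0.77 within males and -0.98 within females.

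*Slc7a7* and *Slc7a9* had similar mean differences with a wider spread. The basolateral *Slc7a7* averaged 82.1 ± 20.9 scaled RPKM in WT-ND and 47.9 ± 20.0 in WT-WD (log2 -0.82 ± 0.48, adjusted p = 0.431 by limma), a difference that did not pass the test, and its partner *Slc3a2* gave -0.50 ± 0.28 (adjusted p = 0.408 by limma). *Slc7a9* stood at 174, 210, 170 and 241 in WT-ND M1, M2, F1 and F2 and at 79.0, 109, 104 and 217 in WT-WD. All WT-WD libraries but F2 were below every WT-ND library. The log2 difference of *Slc7a9* was -0.73 ± 0.58 (adjusted p = 0.565 by limma), and that of its heavy chain *Slc3a1* was -0.29 ± 0.56, with an interval of -1.50 to 0.93.

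The peptide transporter and the remaining brush-border genes differed less between the diets than their spread. *Slc15a1* gave a log2 difference of -0.17 with a 95% interval of -1.42 to 1.08, from 33.8, 37.9, 21.0 and 44.2 scaled RPKM in WT-ND M1, M2, F1 and F2 and 21.4, 26.3, 32.3 and 40.4 in WT-WD. *Slc6a19* gave -0.36 (-1.73 to 1.02), *Slc6a20a* 0.11 (-0.82 to 1.03), which turned to -0.35 without scaling, and *Slc7a8* -0.12 (-0.71 to 0.46). These intervals leave room for differences of either direction. Each of these genes also changed sign between the sexes. Within males and females the difference was -0.58 and 0.24 for *Slc15a1*, -0.85 and 0.13 for *Slc6a19*, -0.21 and 0.42 for *Slc6a20a*, and 0.03 and -0.28 for *Slc7a8*. The remaining transporters were lower in both sexes.

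**Figure D3:**
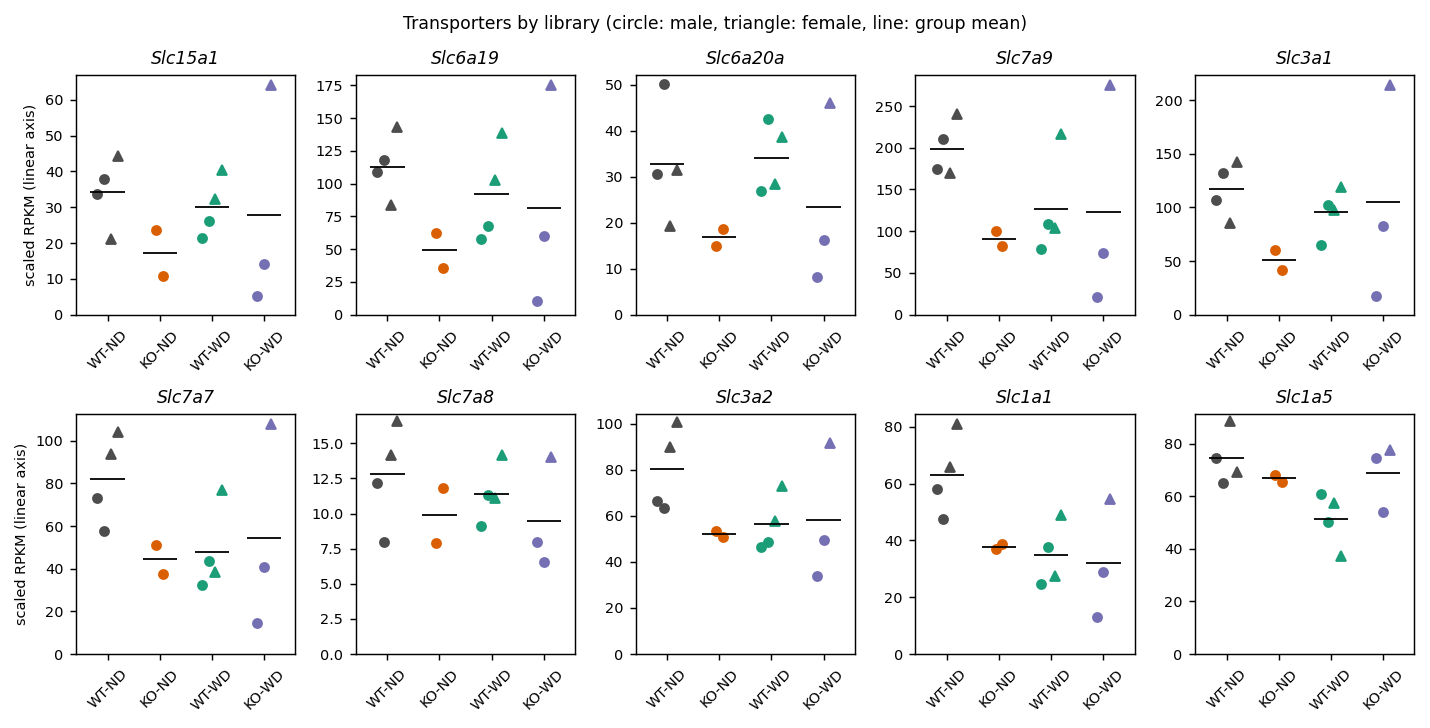
Scaled RPKM (linear vertical axes from 0) of each transporter in the 13 libraries by group, with circles for males, triangles for females and a line at the group mean. *Slc1a5* is the gene whose WT-WD points (37.4 to 60.9) all lie below its WT-ND points (65.2 to 88.8), and the 3 KO-WD points spread widest for *Slc6a19* (10.4 to 175) and *Slc7a9* (21.2 to 275).

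Which transporters passed a threshold in this comparison depended on the scaling and on whether the enterocyte markers entered the fit. Without scaling, *Slc1a1* (-1.33), *Slc1a5* (-1.0) and *Slc3a2* (-0.96) passed an adjusted p under 0.05 in limma, as did 18.1% of all genes, whose median then stood at -0.38. With the enterocyte marker mean as a covariate, a fit added when the values had been seen, *Slc7a9* (-0.90, adjusted p = 0.0368) and *Slc1a1* (-0.96, adjusted p = 0.0347) passed that threshold, as did 5.91% of all genes. Relative to the marker mean, *Slc7a9* lay between -1.58 and -0.96 on the log2 scale in the 4 WT-ND libraries and between -2.09 and -1.83 in the 4 WT-WD libraries, and it was the 1 transporter whose groups did not overlap on this scale, as were 2.26% of all genes in the downward direction. *Slc1a5* and *Slc3a2* had limma adjusted p-values of 0.0904 and 0.105 in the fit with the covariate. The median of the 10 was -0.53 in that fit, beside -0.43 without the covariate. The SE of *Slc7a9* was 0.21 in place of 0.58. Relative to the ileal enterocyte markers, with which its r was higher (0.93 against 0.87), the *Slc7a9* groups did overlap. In WT-ND F2, log2 *Slc7a9* was 7.92 and the mean of those markers 8.76. In WT-WD F1 they were 6.71 and 7.48. The part of the markers in these differences was not tested further.

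The next comparison asked what the loss of *Tas1r3* did on the normal diet. All 10 transporters had lower means in KO-ND than in WT-ND, with a median log2 difference of -0.87 beside 0.01 for all genes, of which 48.7% were lower. None was called at an adjusted p under 0.01 with a fold change of at least 2 (0% of all genes) or at an adjusted p under 0.05 (0.00525%) by limma, and none had an unadjusted p under 0.05 (4.73%). The KO-ND group consists of 2 males, set against 2 males and 2 females, and the value depends on how sex is treated. With sex as a covariate the median of the 10 was -0.49, again with all 10 lower, and among males alone it was -0.78.

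For 7 transporters, the 2 KO-ND libraries lay below all 4 WT-ND libraries, against 13.3% of all genes. They were *Slc6a19*, *Slc6a20a*, *Slc7a9*, *Slc3a1*, *Slc7a7*, *Slc3a2* and *Slc1a1*, and these genes are not independent of each other, since they varied together over all libraries. *Slc3a1* stood at 60.0 and 42.1 scaled RPKM in KO-ND, against 107, 132, 85.5 and 142 in WT-ND M1, M2, F1 and F2, 2.26-fold lower (log2 -1.18 ± 0.69, interval -2.67 to 0.31). *Slc6a19* stood at 62.6 and 35.7 against 109, 118, 83.9 and 143, 2.34-fold lower (log2 -1.23 ± 0.78). *Slc7a9* stood at 100 and 82.3, 2.16-fold below its WT-ND libraries given above.

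The other 4 of these genes showed smaller differences. *Slc6a20a* was at 15.0 and 18.7 in KO-ND against 19.2 to 50.1 in WT-ND (log2 -0.87 ± 0.52), and *Slc7a7* at 51.3 and 37.5 against 57.5 to 104 (-0.86 ± 0.59). *Slc3a2* was at 53.4 and 50.8 against 63.3 to 101 (-0.59 ± 0.34), and *Slc1a1* at 36.9 and 38.7 against 47.7 to 81.2 (-0.71 ± 0.44). All 7 had a limma adjusted p of 0.895. The two-sided exact permutation p was 0.13 for each of the 7, the smallest that 2 against 4 libraries allow.

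*Slc15a1*, *Slc7a8* and *Slc1a5* overlapped between the genotypes on the normal diet. *Slc15a1* was at 23.7 and 10.8 scaled RPKM in KO-ND against 21.0 to 44.2 in WT-ND (log2 -1.02 ± 0.70). *Slc1a5* was at 68.2 and 65.5, within the WT-ND range of 65.2 to 88.8, with a log2 difference of -0.14 (interval -0.65 to 0.36). The enterocyte markers moved with this comparison, since their sums of 2614 and 4027 in KO-ND lay below the lowest WT-ND sum of 6144. The sums of 3 more of the 20 marker lists did not overlap between these groups. Among single genes, 13.3% lay wholly lower and 8.67% wholly higher in KO-ND. Goblet cell markers (6 of 6 tested) summed to 5813 and 7429 against 8479 to 11652 in WT-ND, plasma cell markers (5 of 5) to 6526 and 8050 against 1653 to 4897, and macrophage markers (7 of 7) to 349 and 366 against 220 to 334, with no marker of these lists at 0. As means of log2 levels, the goblet markers did overlap (9.43 and 8.95 in KO-ND against 9.32 to 9.75 in WT-ND). The macrophage markers overlapped too (4.16 and 4.37 against 3.83 to 4.18). On that scale, lists that overlapped as sums did not: ileal enterocyte markers were lower (7.43 and 7.71 against 7.94 to 8.76). Crypt and cycling markers were higher (4.02 and 3.96 against 3.17 to 3.95). The part of the goblet, plasma cell, macrophage, ileal enterocyte and crypt lists in the differences was not tested. With the enterocyte marker mean as a covariate, the median of the 10 transporters was -0.03, with 4 higher and 6 lower. Relative to the marker mean, *Slc3a1* averaged -1.93 in KO-ND and -1.91 in WT-ND on the log2 scale.

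**Figure D4:**
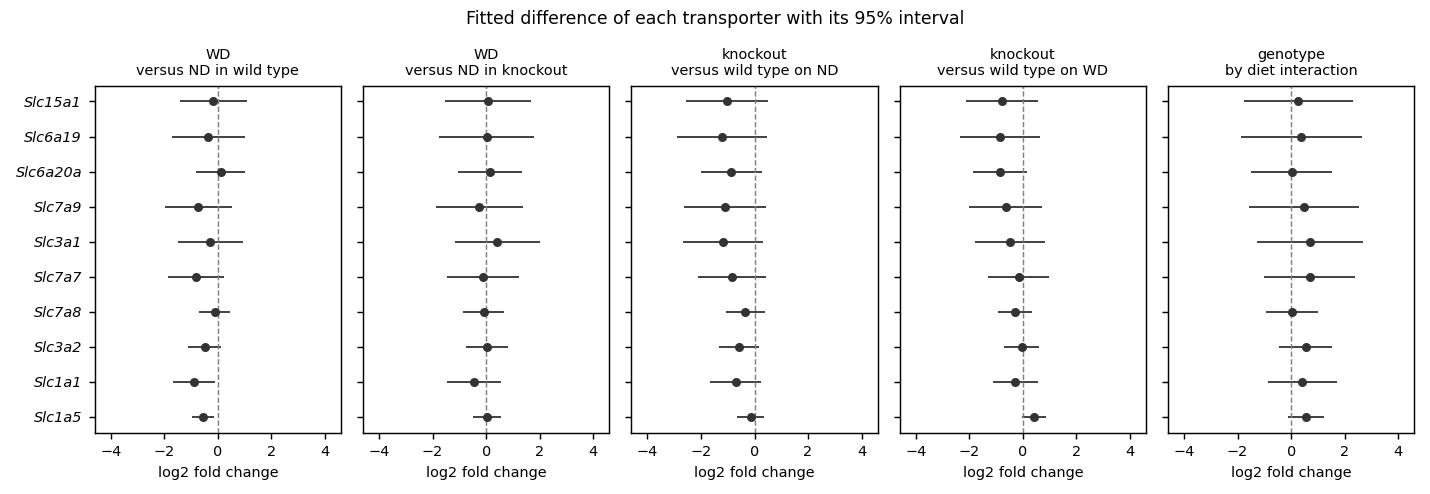
Fitted log2 fold change (horizontal axis) of each transporter with its 95% interval from limma in the 4 comparisons and the interaction. All 10 points lie below 0 for the knockout on the normal diet, and the intervals of *Slc1a1* (-1.66 to -0.09) and *Slc1a5* (-0.96 to -0.13) for the diet in wild type are the ones that leave out 0.

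On the Western diet, the question was again how KO differed from WT, and here 1 library decided the direction. The median log2 difference of the 10 transporters was -0.39, beside -0.01 for all genes (52.4% lower), and 9 of 10 were lower, with *Slc1a5* the exception. Without KO-WD M1 the median was 0.25, and without KO-WD F it was -1.08. No transporter was called by either limma rule (0.0105% and 0.0263% of all genes), and none had an unadjusted p under 0.05 (2.65%). Without KO-WD F, 6 had an unadjusted limma p under 0.05, as had 10.3% of all genes, with adjusted p-values of at least 0.292, and without KO-WD M1 the count was 0 (3.09%). None of the 10 had KO-WD libraries all below the WT-WD libraries (1.29% of all genes).

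The 3 KO-WD libraries of the brush-border genes lay far apart. *Slc7a9* stood at 21.2, 73.5 and 275 scaled RPKM in KO-WD M1, M2 and F. *Slc3a1* stood at 17.0, 83.0 and 214 and *Slc6a19* at 10.4, 60.0 and 175 in the same order, against 64.8 to 119 and 58.1 to 139 in WT-WD. *Slc15a1* stood at 5.10, 14.3 and 64.1, against 21.4 to 40.4. In each of these 4 genes the KO-WD libraries thus reached from below the lowest to above the highest WT-WD library, and their SD in KO-WD came to 95.7% to 114% of the mean. The summed enterocyte markers of these libraries were 1310, 3494 and 12333 in the same order. With the enterocyte marker mean as a covariate, the median difference of the 10 transporters turned from -0.39 to 0.32, with 8 higher and 2 lower.

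*Slc1a5* again set itself apart from the rest. Its KO-WD libraries were at 74.5, 54.1 and 77.6 scaled RPKM in M1, M2 and F, against 37.4 to 60.9 in WT-WD, and 2 of the 3 were above every WT-WD library. The log2 difference was 0.42 ± 0.21 (interval -0.03 to 0.87), with an unadjusted limma p of 0.0623, an adjusted p of 1 and a two-sided exact permutation p of 0.17, where 0.057 is the smallest possible. Without KO-WD M1 it was 0.35. *Slc6a20a* had the lowest mean difference, -0.85 ± 0.46 (interval -1.85 to 0.16), which was -0.29 without KO-WD M1. *Slc3a2* differed least, by -0.05 (interval -0.71 to 0.60), or 0.28 without that library.

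In knockout mice, the direction of the diet difference depended on the libraries used and on how sex was treated. Of the 10 transporters, 6 were higher and 4 lower in KO-WD than in KO-ND (5 of the 6 turned lower without scaling), with a median log2 difference of 0.02 beside 0.00 for all genes (49.6% lower). The median was 0.62 without KO-WD M1, -0.67 without KO-WD F and -0.17 without KO-ND M2. The female library KO-WD F has no KO-ND counterpart. At a median of 0.02, the sign thus rested on single libraries. With the enterocyte marker mean as a covariate it was -0.18, with 2 higher and 8 lower. Among males alone, where each diet has 2 knockout libraries, all 10 transporters were lower (median -0.67). With sex as a covariate 7 were lower and 3 higher, with a median of -0.24. No transporter was called (0% and 0.00525% of all genes under the 2 rules) or had an unadjusted limma p under 0.05 (5.49%). None had KO-WD libraries all below KO-ND (10.1%). At that unadjusted threshold, 1 passed without KO-WD M1 (5.57% of all genes) and 2 without KO-WD F (9.36%). *Slc3a1* had the highest difference, 0.42 ± 0.72, and *Slc1a1* the lowest, -0.45 ± 0.47, and these were 1.40 and 0.07 without KO-WD M1. For *Slc1a5* it was 0.02 (interval -0.51 to 0.55), or -0.05 without that library.

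Whether the diet acted differently in the 2 genotypes was tested as an interaction. All 10 interaction terms were above 0 (*Slc6a20a* and *Slc7a8*, both at 0.03, turned to -0.02 and -0.01 under upper quartile scaling), with a median of 0.45 on the log2 scale beside -0.00 for all genes, but the 4 group means enter every term, so the terms of genes that vary together are not separate evidence. None was called (0% of all genes under both limma rules), and none had an unadjusted p under 0.05 (1.43% of all genes). *Slc1a5* had the term with the smallest p, 0.57 ± 0.31 (interval -0.11 to 1.24, unadjusted p = 0.0928 by limma), which was 0.50 without KO-WD M1. The median of the 10 was 1.01 without KO-WD M1, -0.20 without KO-WD F (2 terms above 0 and 8 below) and 0.33 with the enterocyte marker covariate. KO-WD has a female library and KO-ND has none, so sex enters this term. Among males alone 3 terms were above 0 and 7 below, with a median of -0.11. With sex as a covariate 7 were above and 3 below, with a median of 0.18. *Slc3a1* (unadjusted p = 0.00754), *Slc7a7* (0.0333) and *Slc6a19* (0.0394) were under 0.05 without KO-WD M1, each with a limma adjusted p of 0.986, as were 3.65% of all genes.

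**Figure D5:**
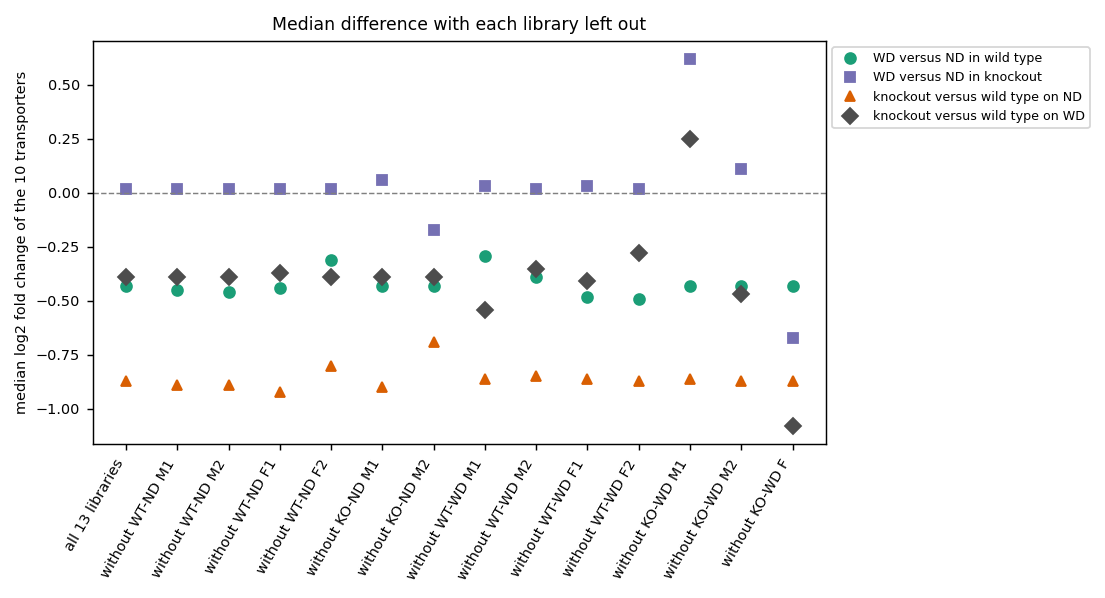
Median log2 fold change of the 10 transporters (vertical axis) in the 4 comparisons with all 13 libraries and with each library left out in turn. The 2 comparisons that use KO-WD swing from -0.67 and -1.08 without its female library to 0.62 and 0.25 without M1, while the diet in wild type stays between -0.49 and -0.29 and the genotype on the normal diet between -0.92 and -0.69.

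The transcripts of the members were also fitted separately, among the 43552 transcripts tested, 31 of the 36 members' transcripts among them. None of the 31 passed an adjusted p under 0.05 in limma in any comparison, where 0.491% (diet in wild type), 0.023% (diet in knockout), 0% (genotype on the normal diet), 0.0023% (genotype on the Western diet) and 0% (interaction) of all transcripts did. At an unadjusted p under 0.05 there were 5, 1, 3, 1 and 1 of the 31 in the same order, beside 14.9%, 6.81%, 5.28%, 3.81% and 2.71% of all transcripts. In wild type on the Western diet these included Slc1a5-202 (log2 -0.60, limma adjusted p = 0.199) and, on the other side, Slc1a5-203 (0.68, adjusted p = 0.335), a retained-intron transcript of 396 bases. Slc1a1-203, also a retained intron, gave -1.30 (limma adjusted p = 0.13), and the coding Slc1a1-201 gave -0.73 (limma adjusted p = 0.33).

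The coding transcript Slc7a9-203 had the smallest p of the members' transcripts for the diet in the knockout. Its share of the *Slc7a9* sum was 1.82% in WT-ND, 2.17% in KO-ND, 5.18% in WT-WD and 16% in KO-WD, given here as group means without a test. Its level was 1.34 and 2.55 scaled RPKM in KO-ND and 4.0, 18.2 and 16.3 in KO-WD M1, M2 and F. In WT it was 3.12, 2.30, 3.55 and 5.17 on the normal diet and 4.30, 11.2, 2.60 and 5.39 on the Western diet in M1, M2, F1 and F2. The fitted log2 difference for the diet in knockout was 2.25 ± 0.63 (adjusted p = 0.479 by limma). For *Slc6a19*, the share of the transcript Slc6a19-202, not annotated as coding, was 13.6% in WT-ND, 16.5% in KO-ND, 25.9% in WT-WD and 29.5% in KO-WD, and that of the retained-intron Slc6a19-205 was 41.8%, 28.2%, 30.0% and 27.3%.

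Lists of related genes place the 10 genes among their neighbours, and no gene of them passed an adjusted p under 0.05 in limma in any comparison. Of 13 tested partners of the transporters and brush-border peptidases (of 15 listed), all 13 were lower in WT-WD than in WT-ND, with a median log2 difference of -0.58, and all 13 in KO-ND than in WT-ND, with a median of -1.24. Their lowest members were *Anpep* (-1.21), aminopeptidase N, for the diet in wild type and *Pdzk1* (-1.80), a scaffold of apical membrane proteins, for the genotype on the normal diet, and the highest for the latter was *Ggt1* (-0.76). At an unadjusted p under 0.05 the counts were 0 of 13 and 3 of 13, beside 15.5% and 4.73% of all genes. On the Western diet, 12 of 13 were lower in KO, with a median of -0.63, but without KO-WD M1 11 of 13 were higher, with a median of 0.27. Without KO-WD F all 13 were lower on that diet, with a median of -1.47. For the diet in knockout, all 13 were higher without KO-WD M1 (median 0.83) and all 13 lower without KO-WD F (-0.81).

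The other amino acid and peptide transporters, 24 tested of 30 listed, lay near the middle of all genes. Their medians were -0.02 for the diet in wild type (13 lower, 11 higher), 0.13 for the diet in knockout, -0.10 for the genotype on the normal diet and 0.03 for the genotype on the Western diet. Without KO-WD M1 the second and the last of these were 0.11 and -0.06. The ends of the list for the diet in wild type were *Slc6a14* (1.02 ± 0.78), a carrier of neutral and cationic amino acids, and *Slc7a10* (-0.72). *Slc16a10* (-0.92), the basolateral carrier of aromatic amino acids TAT1, was the lowest for the genotype on the normal diet and *Slc7a5* (0.44), the LAT1 light chain, the highest. Counts at an unadjusted p under 0.05 were 0, 1, 1 and 0 of 24, beside 15.5%, 5.49%, 4.73% and 2.65% of all genes.

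Genes that respond to a shortage of amino acids, 16 tested of 16 listed, had medians of -0.16 for the diet in wild type, -0.09 for the diet in knockout, 0.07 for the genotype on the normal diet and 0.26 for the genotype on the Western diet. Without KO-WD M1 the medians for the diet in knockout and the genotype on the Western diet were 0.06 and 0.25. On the normal diet the ends were *Nupr1* (1.00) and *Atf3* (-1.63), both stress-induced regulators. On the Western diet they were *Mthfd2* (0.66), a mitochondrial enzyme of folate metabolism, and *Atf3* (-0.56). In the same order of comparisons, 0, 0, 3 and 3 of the 16 had an unadjusted p under 0.05 in limma. The shares of all genes were 15.5%, 5.49%, 4.73% and 2.65%. The last count was 2 without KO-WD M1 (3.09% of all genes) and 7 without KO-WD F (10.3%).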

How the data were processed

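RNA of terminal ileum, labelled as 16 samples in 4 groups, was read on the Ion Proton platform, and the authors mapped the reads to mm10 with STAR in Partek Flow and quantified Ensembl transcripts. The deposited values are RPKM per transcript as the authors made them, and the library total behind them is not given in the sources used here. The depth of 7002742 to 12383144 reads was inferred from the value of 1 read on single-transcript genes (0.0692 to 0.139 RPKM on 1 kb) and covers counting error only.

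RPKM were added up per gene. Genes at 1 RPKM or more in at least 2 of the 13 libraries were kept, scaled with trimmed log ratios to a reference library (TMM-type, factors 0.693 to 1.408), and fitted as log2(value + 0.5), which understates changes of low genes, using the R (4.3.3) package limma 3.58.1, 1 model for the 4 groups, a trend of variance on level and p-values adjusted after Benjamini and Hochberg. The code was tested on simulated data. The exact permutation tests used log2 values (scipy). Gene models came from GENCODE M21, which named 98.2% of the transcripts, and promoters from RefSeq.

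All 10 members were named. Of the related lists, the member with the highest and the one with the lowest log2 fold change are named, and for likeness the 3 genes with the highest correlation, except that 1 gene is not reported here. Members, lists, tests and these rules were chosen with earlier results of these data known. The transcript fit and the fits on coding transcripts and with the marker covariate were added when values had been seen. Other marker lists (crypt, secretory, immune, stromal and blood cells) were summed alongside. Those whose WT-ND and KO-ND sums or log2 means do not overlap are given with that comparison. P-values measure the spread between the libraries used, of which KO-WD F is an average of related columns.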

Additional observations from a re-analysis of the deposited data

How the results depend on the processing

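No transporter was called at an adjusted p under 0.01 with a fold change of at least 2 in any comparison under any setting tried: 3 other scalings, pseudocounts of 0.1 and 1, no filter or a mean RPKM of at least 5, the compared groups alone, sex as a covariate, all 16 columns, males alone, coding transcripts alone, no values with over 6 digits, the marker covariate, and each library left out (from 0 to 0 calls in each comparison). The smallest adjusted p over the settings that leave out a library was 0.142 for the diet in wild type. In the fit with a replicate block, which leaves out KO-WD F, 0 were called in each comparison and the smallest adjusted p was 0.0706 (*Slc1a1*, diet in wild type). The labels give shared replicate numbers but no shared litter or day, and deviations of same-numbered libraries correlated from -0.15 to 0.57, so the numbers were not taken as pairing. With the compared groups alone, 8 transporters had an unadjusted p under 0.05 for the genotype on the normal diet, as had 11.5% of all genes, with a smallest adjusted p of 0.168. Without scaling, 5 transporters changed direction for the diet in knockout and *Slc6a20a* for the diet in wild type. Of the 279 values of single transporters for the diet in wild type under other settings, 6 had another sign than the reported value. The same count was 48 of 279 for the diet in knockout, 4 of 279 for the genotype on the normal diet, 19 of 279 for the genotype on the Western diet and 41 of 269 for the interaction. With 2 KO-ND and 3 KO-WD libraries the precision is low: the 95% interval of *Slc6a19* for the genotype on the normal diet ran from -2.91 to 0.46, and the lack of a call does not show equal levels.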
